A study of Schizosaccharomyces japonicus with 6 samples.

Results

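The genes described here encode the machinery that moves chromosomes in mitosis in the fission yeast *Schizosaccharomyces japonicus*. They were chosen as the listed genes whose description names a kinetochore, spindle, centromere, CENP protein or anaphase-promoting complex, leaving out genes with meiotic, sporulation or histone words and symbols of meiotic gene families. The rule found 48 of the 5272 genes in the deposited table, and left out 2 genes that carried such words, *cnp1* (CENP-A, the centromeric histone H3 variant) and *kms1*. All 48 were above 0 in every library and all 48 passed the filter on low values, so none was lost before testing.

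RNA came from 3 strains, with 2 biological replicate libraries per strain. The WT strain was NIG5572, of mating type h- with the ura4-D3 and ade6-domK alleles. The study lists *pab2*Δ strains of more than 1 mating type, and the sample labels do not say which was sequenced. The *pab2*Δ strain lacks *pab2*, which encodes the nuclear poly(A)-binding protein and was replaced by a drug marker. The *clr4-1* strain carries a temperature-sensitive allele of *clr4*, the histone H3 Lys9 methyltransferase gene, isolated after random mutagenesis. It is 1 allele of a gene that the species needs to live, so *clr4-1* is not a null. All cells were grown in rich medium at 30°C and were harvested in mid log phase. The study asked what part Pab2 plays in heterochromatin assembly, and isolated *clr4-1* as a control. RNA sequencing, 1 of several assays in the study, compared gene expression in each mutant with WT.

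At mitosis, the kinetochore assembles on centromeric chromatin marked by CENP-A. Inner subunits, many of them in the Mis6-Mal2-Sim4 complex, bind the chromatin, and the outer Mis12, Spc7 and Ndc80 complexes hold the microtubules that grow from the spindle pole bodies embedded in the nuclear envelope. Unattached kinetochores feed the spindle checkpoint proteins, which hold back the anaphase-promoting complex, a ubiquitin ligase whose activity triggers sister separation and mitotic exit. Centromeric heterochromatin, which depends on Clr4, flanks this structure and helps to hold sister centromeres together. The roles given below are those of the *S. pombe* orthologs, under whose names the table lists the genes.

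Values are FPKM, fragments scaled to transcript length and to the size of the library, and can be compared between genes because they are per length. Sums of FPKM ran from 910209 to 1080821, and 276 to 344 genes were listed at 0 in a library. FPKM does not hold the number of reads, so the depth is unknown. The 2 *pab2*Δ libraries list *pab2* at 0, and it stood at 142 FPKM or more in the other 4. *clr4* stood at 9.34 and 9.48 FPKM in the WT pair and at 19.6 and 23.3 FPKM in the *clr4-1* pair, where its level does not test the allele. The 2 *pab2*Δ columns carry no replicate number and are called a and b. Differences between strains were tested with limma on log2(FPKM + 1) over all 6 libraries. The 4899 genes that averaged 1 FPKM or more entered the Benjamini-Hochberg adjustment, and a gene is called higher or lower at an adjusted p under 0.05. For weakly expressed genes the pseudocount makes these fold changes too small. Across all genes tested, the median shift on the log2 scale was 0.19 in *pab2*Δ and -0.064 in *clr4-1*. Scaling the libraries with trimmed means (TMM) brought these medians to -0.0082 and -0.0018, and main counts are given on both scales.

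In WT the mitotic machinery was expressed at modest levels. The median of the 48 genes was 13.9 FPKM, against 27.0 FPKM over all genes tested, and 36 of the 48 lay below that overall median. Between 5 and 50 FPKM lay 43 of them. At the top stood *fta3*, the CENP-H ortholog of the inner kinetochore, with 213 and 219 FPKM. Also among the highest was *mhf2*, the CENP-X homolog, with 42.7 and 51.7 FPKM. At the bottom stood *apc15*, a subunit of the anaphase-promoting complex, with 3.76 and 3.74 FPKM. Just above it were *cnl2*, a centromere protein, with 4.30 and 4.15 FPKM and *mis6*, the CENP-I ortholog, with 4.55 and 4.19 FPKM. Most neighbours in this order did not differ beyond their spread, since in 30 pairs of neighbours the lower WT library of a gene did not exceed the higher WT library of the next.

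Subunits of the same complex thus differed widely in their RNA levels. Within the anaphase-promoting complex, the median of the WT means was 10.2 FPKM and the lowest was 3.75 FPKM (*apc15*). The inner kinetochore and CENP-A loading genes ran from 4.22 FPKM (*cnl2*) to 216 FPKM (*fta3*), with a median of 16.2 FPKM. The 9 outer kinetochore genes were closer together, from 6.60 FPKM for *spc7*, the scaffold that recruits checkpoint proteins, to 41.2 FPKM for *nnf1* of the Mis12 complex. Libraries of the same strain agreed closely, with a median log2 difference of 0.086 between the WT pair, 0.067 between the *pab2*Δ pair and 0.065 between the *clr4-1* pair. The largest replicate difference was 0.58 on the log2 scale, for *mhf2* in *pab2*Δ, and the *mhf1*, *apc13* and *apc14* pairs in that strain were also among its 4 widest.

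**Figure D1:**
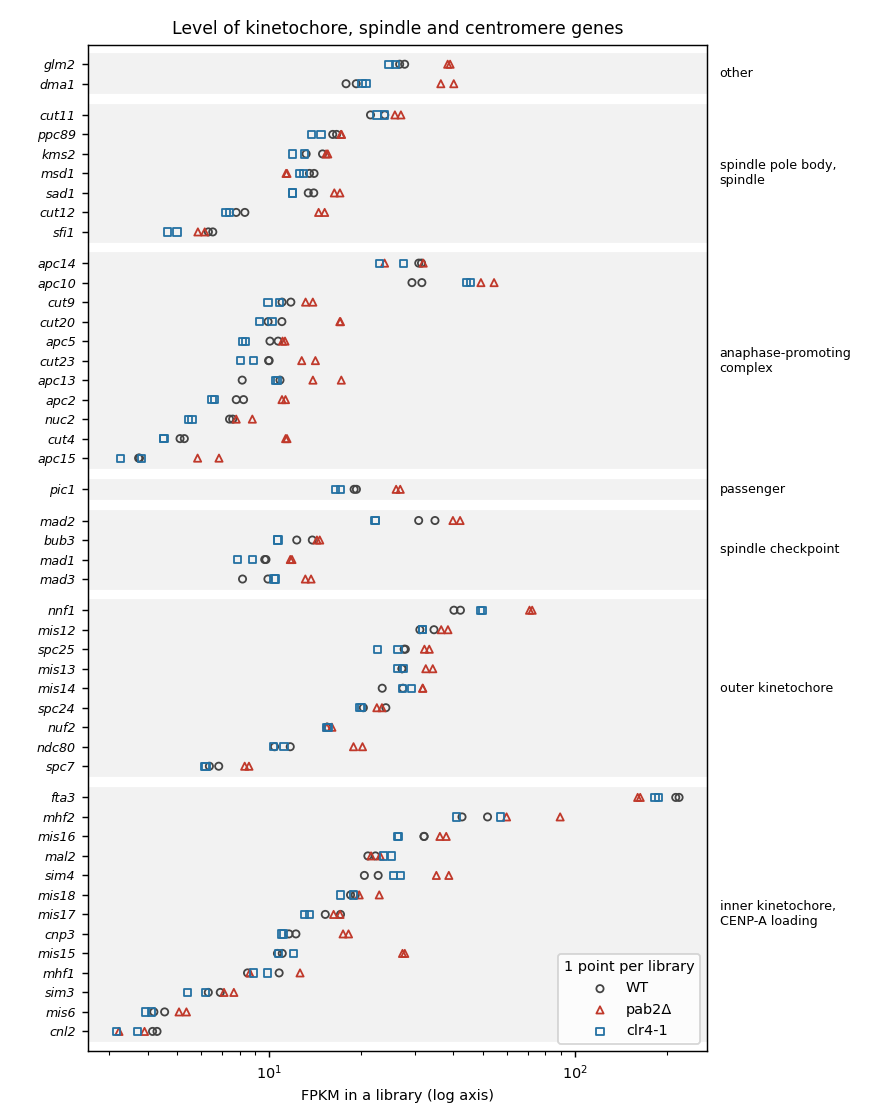
FPKM of the genes in each of the 6 libraries on a log axis, with circles for WT, triangles for *pab2*Δ and squares for *clr4-1*, and with genes sorted by WT mean within their role. The counted gene that is not reported by name is not drawn. Among the genes drawn, the *fta3* points lie to the right of the others in all 6 libraries. The *pab2*Δ points of *mis15*, *cut4*, *dma1*, *cut12* and *ndc80* stand to the right of the points of both other strains.

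In *pab2*Δ, 29 of the 48 genes were higher than in WT and 2 were lower, a share of 60.4% and 4.17%. The background over all genes tested was 53.8% called higher and 19.9% called lower. The first share is near its background and the second is below it. After TMM scaling 17 of the 48 were higher (35.4%, background 32.8%) and 6 lower (12.5%, background 34.5%). For the 48 genes the median log2 change was 0.26 as deposited and 0.063 after scaling. The genes spread widely around it, and their log2 fold changes ran from -0.42 for *fta3* to 1.27 for *mis15*. By ratio alone, both *pab2*Δ libraries lay above both WT libraries in 38 genes (79.2%, background 61.4%) and below them in 4 (8.33%, background 25.5%).

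The largest rise was in *mis15*, which encodes the CENP-N ortholog of the inner kinetochore. Its level was 10.6 and 11 FPKM in the WT pair, 27.3 and 27.7 FPKM in the *pab2*Δ pair, and 10.7 and 12 FPKM in the *clr4-1* pair. The *pab2*Δ libraries stood far above the other 4, which overlapped. The log2 fold change against WT was 1.27 (SE 0.062, adjusted p = 1.94e-05 from limma), and it was 1.07 after TMM scaling. This fold change stood at percentile 94.3 of all genes tested. *sim4*, the CENP-K ortholog of the same Mis6-Mal2-Sim4 complex, was at 22.7 and 20.5 FPKM in the WT pair and at 35.2 and 38.7 FPKM in the *pab2*Δ pair, a log2 fold change of 0.75 (SE 0.070, adjusted p = 0.000226). *cnp3*, which encodes CENP-C, the link from CENP-A chromatin to the outer kinetochore, was at 12.2 and 11.6 FPKM in the WT pair and at 17.4 and 18.2 FPKM in the *pab2*Δ pair, a log2 fold change of 0.54 (SE 0.050, adjusted p = 0.000216).

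Other inner kinetochore genes changed less or did not pass the test. *mis6* was at 5.07 and 5.36 FPKM in the *pab2*Δ pair, above both WT values, but its log2 fold change of 0.21 (SE 0.085) did not pass the test (adjusted p = 0.0658 from limma). *mis17* and *mal2*, partners of *mis15* and *sim4* in the complex, had log2 fold changes of 0.040 (SE 0.066) and 0.041 (SE 0.056), with adjusted p of 0.606 and 0.531. After scaling *mal2* was called lower (-0.16, adjusted p = 0.042 from limma). *mis16*, a chaperone subunit needed to load CENP-A, was called higher as deposited (0.20, adjusted p = 0.00401) and had a log2 fold change of -0.0068 after scaling (adjusted p = 0.881). *mhf2* stood at 89.4 FPKM in *pab2*Δ library a and 59.7 FPKM in library b, and its log2 fold change of 0.63 (SE 0.24) did not pass the test (adjusted p = 0.0539). *cnl2* stood at 3.23 and 3.91 FPKM, below both WT values, and was called lower only after TMM scaling (adjusted p = 0.181 as deposited and 0.0378 scaled).

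*fta3* ran the other way. It was at 213 and 219 FPKM in the WT pair, 160 and 163 FPKM in the *pab2*Δ pair, and 187 and 183 FPKM in the *clr4-1* pair. The 3 strains did not overlap, and *pab2*Δ was lowest. The log2 fold change in *pab2*Δ was -0.42 (SE 0.028, adjusted p = 6.66e-05 from limma), and -0.63 after scaling. The second gene called lower was *msd1*, whose product anchors spindle microtubules at the poles. It was at 14.0 and 13.5 FPKM in the WT pair and 11.3 and 11.4 FPKM in the *pab2*Δ pair (log2 change -0.25, SE 0.047, adjusted p = 0.0038).

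Of the 9 outer kinetochore genes 7 were higher in *pab2*Δ as deposited (background 53.8%), and 2 after scaling (background 32.8%), *ndc80* and *nnf1*. *ndc80*, which encodes the microtubule-binding subunit, was at 10.4 and 11.7 FPKM in the WT pair, 20.2 and 18.9 FPKM in the *pab2*Δ pair, and 11.2 and 10.4 FPKM in the *clr4-1* pair. Its log2 fold change was 0.77 (SE 0.075, adjusted p = 0.000264 from limma). Its partner *nuf2* was at 15.5 and 15.4 FPKM in the WT pair and 15.4 and 16 FPKM in the *pab2*Δ pair (log2 change 0.023, SE 0.043, adjusted p = 0.648), and it was called lower after scaling (-0.18, adjusted p = 0.0114). *spc24* had a log2 fold change of 0.050 (SE 0.079). *nnf1* rose from 40.2 and 42.2 FPKM to 71.0 and 72.4 FPKM (log2 change 0.79, SE 0.037, adjusted p = 1.62e-05). *mis12*, *mis13* and *mis14* of the same complex had log2 fold changes from 0.19 to 0.32, all called as deposited and none after scaling. *spc7* was at 6.37 and 6.84 FPKM in the WT pair and 8.31 and 8.58 FPKM in the *pab2*Δ pair (log2 change 0.31, adjusted p = 0.00622, and 0.139 after scaling).

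The ratio of 2 genes within a library does not depend on the scaling between libraries, and it shows the same unequal changes. These pairs were chosen after the values were seen, and no test was run on them. The level of *ndc80* was 0.672 and 0.758 times that of *nuf2* in the WT pair, 1.31 and 1.18 times in the *pab2*Δ pair, and 0.716 and 0.670 times in the *clr4-1* pair. *mis15* stood at 0.622 and 0.723 times the level of *mis17* in WT, at 1.68 and 1.63 times in *pab2*Δ, and at 0.790 and 0.924 times in *clr4-1*. The order of the partners was thus reversed in *pab2*Δ in both complexes. *fta3* was 9.40 and 10.7 times as high as *sim4* in WT, 4.55 and 4.23 times in *pab2*Δ, and 6.97 and 7.18 times in *clr4-1*. The 3 strains were separate in this last ratio, with *clr4-1* between the others.

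The anaphase-promoting complex had the highest share of rising subunits among the groups with more than 5 members after scaling. As deposited, 9 of its 12 listed subunits were higher in *pab2*Δ and none was lower (background 53.8% and 19.9%), and after TMM scaling 7 were higher and none lower (background 32.8% and 34.5%). The 12 subunits had a median log2 change of 0.53 as deposited, against 0.19 for all genes, and 0.34 after scaling. *cut4*, which encodes the large scaffold subunit Apc1, changed most, from 5.11 and 5.28 FPKM in the WT pair to 11.3 and 11.4 FPKM in the *pab2*Δ pair, with 4.53 and 4.50 FPKM in the *clr4-1* pair. The *pab2*Δ libraries stood well above those of both other strains, with a log2 fold change of 1.00 against WT (SE 0.062, adjusted p = 4.68e-05 from limma). In *clr4-1* the log2 fold change of *cut4* was -0.17 and did not pass the test (adjusted p = 0.080).

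Other subunits had log2 fold changes up to 0.75. *apc10*, which helps the complex to bind its substrates, was at 49.2 and 54.3 FPKM against 29.3 and 31.6 FPKM (0.75, SE 0.061, adjusted p = 0.000133). *cut20*, the Apc4 subunit, was at 17.0 and 17.1 FPKM against 9.91 and 11 FPKM (0.66, SE 0.070). Both genes were raised in both libraries with no overlap. *apc15* and *apc13*, both low in WT, had log2 fold changes of 0.62 (SE 0.11) and 0.66 (SE 0.15), and *apc13* lost its call without *pab2*Δ library a. The cullin gene *apc2* rose by 0.43 (SE 0.058), *cut23* (Apc8) by 0.40 and *cut9* (Apc6) by 0.23, and the last 2 were not called after scaling. The 3 subunits not called were *nuc2* (Apc3, 0.13, SE 0.076), *apc5* (0.097, SE 0.055) and *apc14* (-0.17, SE 0.15). *cut4* was therefore at 0.689 and 0.695 times the level of *nuc2* in WT and at 1.29 and 1.47 times in *pab2*Δ. In *clr4-1* it was at 0.810 and 0.829 times the level of *nuc2*.

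Among the checkpoint genes, 3 of 4 were higher in *pab2*Δ as deposited (background 53.8%) and 1 after scaling (background 32.8%). The gene called on both scales was *mad3*, a subunit of the complex that binds and inhibits the activator of the anaphase-promoting complex, with 9.90 and 8.18 FPKM in the WT pair and 13.1 and 13.7 FPKM in the *pab2*Δ pair (log2 change 0.53, SE 0.089, adjusted p = 0.00262 from limma). *mad2*, which encodes the protein that changes shape at unattached kinetochores, was at 30.8 and 34.8 FPKM in the WT pair and 42.1 and 39.9 FPKM in the *pab2*Δ pair (0.31, SE 0.064, adjusted p = 0.00579, and 0.194 after scaling). *dma1*, a ubiquitin ligase that delays septation when the checkpoint is active, changed far more. It was at 17.8 and 19.2 FPKM in the WT pair, 40.1 and 36.4 FPKM in the *pab2*Δ pair, and 20.1 and 20.7 FPKM in the *clr4-1* pair. The log2 fold change in *pab2*Δ was 1.01 (SE 0.063, adjusted p = 4.6e-05), close to that of *cut4*. *pic1*, the INCENP of the chromosomal passenger complex, was at 18.9 and 19.3 FPKM in the WT pair and 26.0 and 26.8 FPKM in the *pab2*Δ pair (0.45, SE 0.041, adjusted p = 0.000215). *glm2*, listed only as a predicted member of a kinetochore-associated family, had a log2 fold change of 0.49 (SE 0.042).

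Of the 7 spindle pole and spindle genes, 3 rose and 1 fell in *pab2*Δ (background 53.8% and 19.9%), and after scaling 1 was higher and 2 lower (background 32.8% and 34.5%). *cut12*, whose product at the pole promotes mitotic entry, was the one that stayed high, with 8.32 and 7.80 FPKM in the WT pair, 14.5 and 15.2 FPKM in the *pab2*Δ pair, and 7.41 and 7.22 FPKM in the *clr4-1* pair (log2 change 0.81, SE 0.059, adjusted p = 8.61e-05 from limma). *sad1*, the SUN-domain protein that ties the pole to the nuclear envelope, was at 14.0 and 13.4 FPKM in the WT pair and 16.3 and 17.0 FPKM in the *pab2*Δ pair (0.27, adjusted p = 0.0033), and its log2 fold change was 0.066 after scaling (adjusted p = 0.259). *cut11*, needed to insert the pole into the envelope, was called higher as deposited (adjusted p = 0.0251) and not after scaling (adjusted p = 0.938). *ppc89*, *kms2* and *sfi1* had log2 fold changes from -0.087 to 0.13, none of which passed as deposited. The remaining gene of the 7 is *msd1*, described above.

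By a fold rule applied to all 4 ratios of a *pab2*Δ to a WT library, 2 of the 48 genes passed a ratio of 2, *mis15* (2.47 to 2.61) and *cut4* (2.14 to 2.24). That is 4.17% against 7.60% of all genes with a ratio. None passed below 0.5 (background 2.02%). A ratio of 1.5 was passed by 10 genes, *mis15*, *cut4*, *dma1*, *cut12*, *ndc80*, *nnf1*, *sim4*, *apc10*, *apc15* and *cut20*. No share of all genes is given at 1.5, so this count cannot be compared with a background. The ratios of *dma1* ran from 1.89 to 2.25, so it missed the first threshold in at least 1 pair of libraries.

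**Figure D2:**
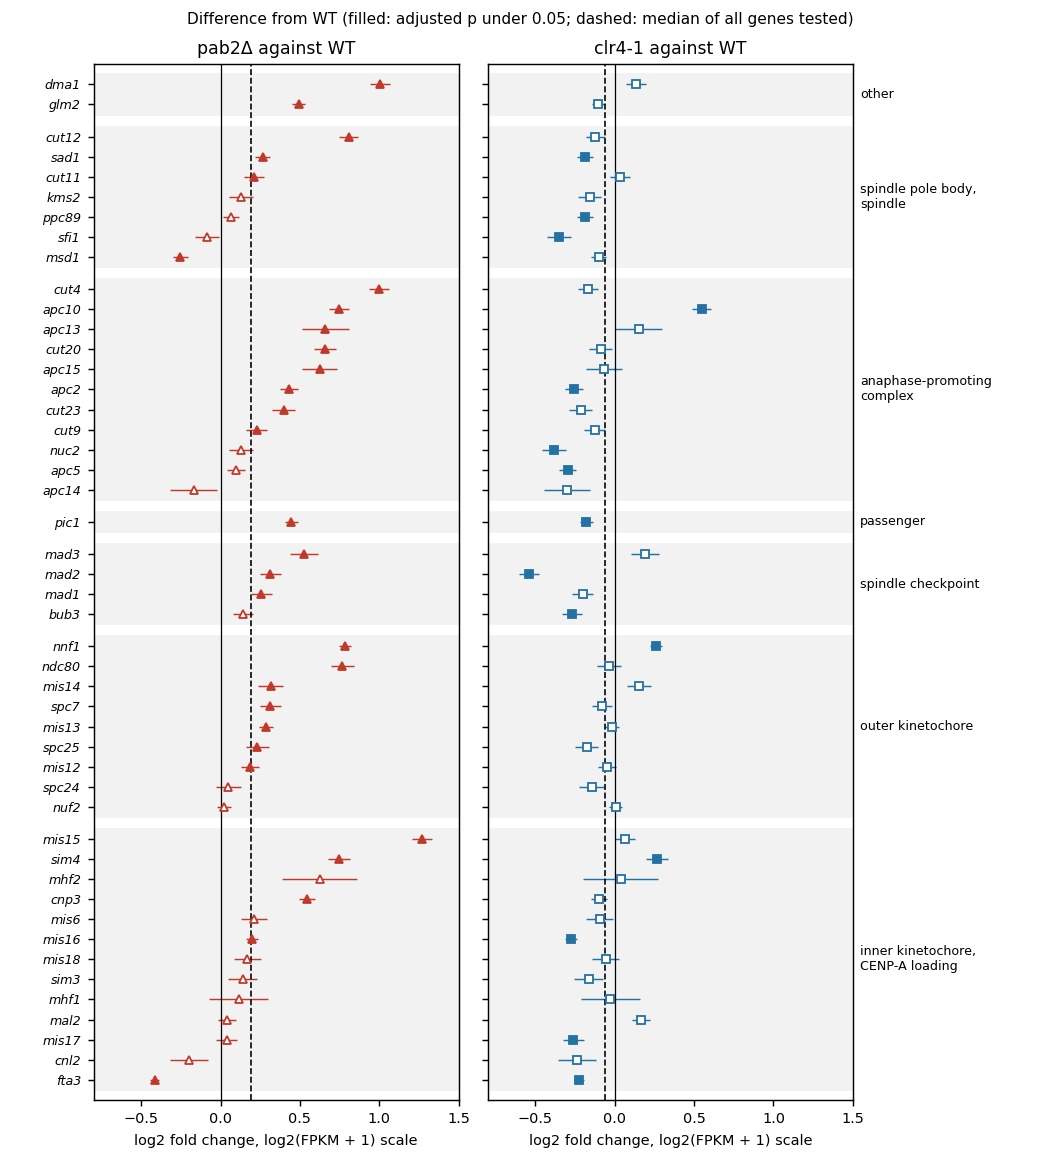
Log2 fold change against WT on the log2(FPKM + 1) scale for the genes in *pab2*Δ (left) and *clr4-1* (right), with bars of 1 standard error from limma, filled symbols for an adjusted p under 0.05, and a dashed line at the median of all genes tested. In *pab2*Δ the genes spread from -0.42 to 1.27 around a median of 0.19 for all genes, and in *clr4-1* from -0.54 to 0.55.

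In *clr4-1* the changes were smaller and mostly downward. Of the 48 genes 4 were higher than in WT (8.33%, background 15.1%) and 12 lower (25%, background 27.5%), shares at or below those of all genes. After TMM scaling 5 were higher (background 21.0%) and 8 lower (background 17.7%). Both *clr4-1* libraries lay above both WT libraries in 7 genes (14.6%, background 26.7%) and below them in 28 (58.3%, background 46.8%). The median log2 fold change was -0.10, against -0.064 for all genes, and no gene passed a ratio of 2 or of 0.5 in all 4 pairs of libraries (backgrounds 0.796% and 1.18%) or a ratio of 1.5 in either direction. Without 1 library the number called lower was 7 (WT 1), 6 (WT 2), 7 (*clr4-1* 1) or 7 (*clr4-1* 2), and *mad2*, *mis16* and *fta3* were called in each of these and under every other setting tried. Without *clr4-1* 2 the number called higher was 2.

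The largest decrease was in the checkpoint gene *mad2*, at 30.8 and 34.8 FPKM in the WT pair and 22.2 and 22.3 FPKM in the *clr4-1* pair. The log2 fold change was -0.54 (SE 0.064, adjusted p = 0.00219 from limma) and -0.48 after scaling. The level of *mad2* relative to its binding partner *mad1* was 3.16 and 3.60 in the WT pair, 3.55 and 3.40 in the *pab2*Δ pair, and 2.52 and 2.83 in the *clr4-1* pair. *bub3*, another checkpoint subunit, was at 13.8 and 12.3 FPKM in the WT pair and 10.7 and 10.6 FPKM in the *clr4-1* pair (-0.27, SE 0.064, adjusted p = 0.0212). *mad1* had a log2 fold change of -0.20 (SE 0.065, adjusted p = 0.0537) and *mad3* of 0.19 (SE 0.089, adjusted p = 0.137), and neither passed the test.

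Genes of the inner kinetochore that were lower in *clr4-1* were *mis16*, *mis17* and *fta3*. *mis16* was at 32.1 and 32.1 FPKM in the WT pair and 26.3 and 26.5 FPKM in the *clr4-1* pair (log2 change -0.27, SE 0.038, adjusted p = 0.00349 from limma). *fta3* had a log2 fold change of -0.22 (SE 0.028, adjusted p = 0.00276). *mis17* was at 13.6 and 13.0 FPKM in the *clr4-1* pair, against 17.1 and 15.2 FPKM in the WT pair (-0.26, SE 0.066, adjusted p = 0.0252, and 0.058 after scaling). At the pole, *sfi1*, a component of the bridge used in duplication of the pole body, was at 6.54 and 6.32 FPKM in the WT pair and 4.64 and 5.0 FPKM in the *clr4-1* pair (-0.35, SE 0.074, adjusted p = 0.0142). *sad1* and the pole scaffold gene *ppc89* were both at -0.19, with adjusted p of 0.0258 and 0.0296, and neither was called after scaling. *pic1* was at -0.18 (adjusted p = 0.019, and 0.0673 after scaling).

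The anaphase-promoting complex divided in *clr4-1*. *nuc2*, *apc5* and *apc2* were lower, with log2 fold changes of -0.39 (SE 0.076), -0.30 (SE 0.055) and -0.26 (SE 0.058) and adjusted p of 0.0114, 0.0094 and 0.0183 from limma. *apc10* was higher, at 44.2 and 45.6 FPKM, against 29.3 and 31.6 FPKM in the WT pair, the largest rise of the 48 in this strain (0.55, SE 0.061, adjusted p = 0.00183). Also called higher were *nnf1*, at 49.0 and 49.8 FPKM (0.26, SE 0.037, adjusted p = 0.004), and *sim4*, at 26.9 and 25.4 FPKM (0.27, SE 0.070, adjusted p = 0.0286). *sim4* lost its call without WT 2 or without either *clr4-1* library.

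Set side by side, the 2 strains split the 48 genes into 7 classes, with the caveat that both are compared with the same WT libraries. No share of all genes is given for these classes, so whether the split is particular to the 48 genes was not tested. Called higher in both were 4 genes, among them *apc10*, *nnf1* and *sim4*, and called lower in both was *fta3*. Called higher in *pab2*Δ and lower in *clr4-1* were *apc2*, *mad2*, *mis16*, *pic1* and *sad1*, of which *apc2* alone was called in both strains after scaling. Called higher in *pab2*Δ alone were 20 genes, among them *mis15*, *cut4*, *dma1*, *cut12*, *ndc80*, *cut20*, *cnp3*, *mad3* and *spc7*, and lower in *pab2*Δ alone was *msd1*. Called lower in *clr4-1* alone were *apc5*, *bub3*, *mis17*, *nuc2*, *ppc89* and *sfi1*. In neither strain were 11 genes called as deposited, *apc14*, *cnl2*, *kms2*, *mal2*, *mhf1*, *mhf2*, *mis18*, *mis6*, *nuf2*, *sim3* and *spc24*. Of these, *cnl2*, *mal2* and *nuf2* were called lower in *pab2*Δ after scaling. On that scale *mal2* was called higher in *clr4-1* (log2 change 0.23, adjusted p = 0.0236 from limma). Being called in one strain and not in the other does not show that the strains differ, and the direct contrast tests that.

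In the direct contrast *pab2*Δ exceeded *clr4-1* in 38 of the 48 genes (79.2%, background 61.1%) and was below it in 2 (4.17%, background 17.4%). After scaling 19 were higher (39.6%, background 34.4%) and 4 lower (8.33%, background 34.5%). Those 4 were *fta3*, *msd1*, *mal2* and *nuf2*. Both *pab2*Δ libraries lay above both *clr4-1* libraries in 41 genes (85.4%, background 68.0%) and below them in 3 (6.25%, background 21.2%). The largest differences were in *mis15* (log2 difference 1.21, adjusted p = 2.08e-05 from limma), *cut4* (1.17, adjusted p = 2.37e-05), *cut12* (0.93), *dma1* (0.87), *mad2* (0.85) and *ndc80* (0.80). These 6 were called after scaling too. For *mad2* the *pab2*Δ libraries were above and the *clr4-1* libraries below both WT libraries. The 2 genes lower in *pab2*Δ were *fta3* (-0.19, adjusted p = 0.00133) and *msd1* (-0.15, adjusted p = 0.025), and *msd1* lost its call without either *pab2*Δ library or without *clr4-1* 1. *apc10* was 0.20 higher in *pab2*Δ (adjusted p = 0.0255), but after scaling its difference was -0.074 (adjusted p = 0.319).

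**Figure D3:**
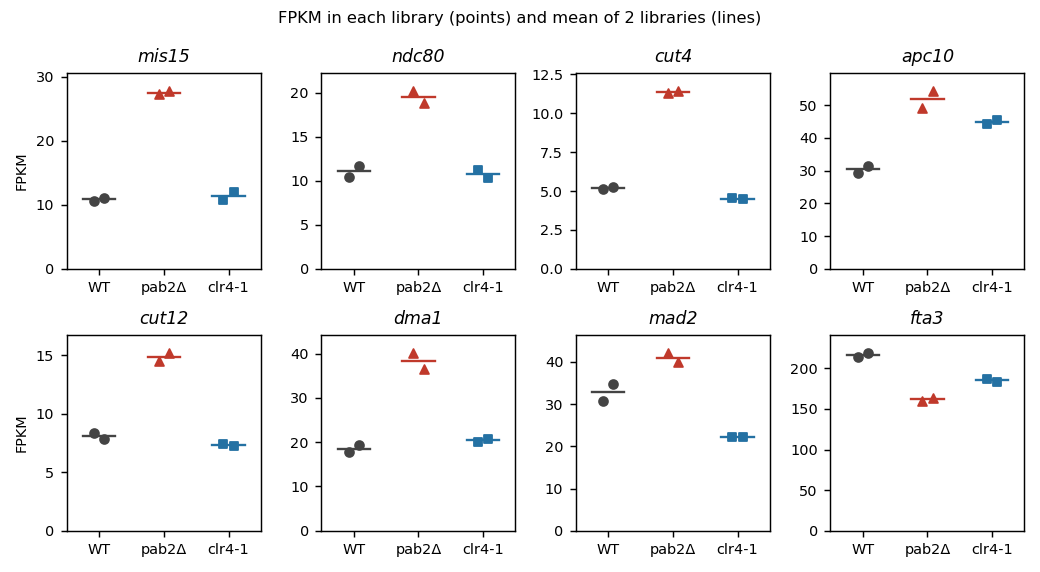
FPKM in each library (points) and the mean of 2 libraries (horizontal lines) for 8 genes, on axes that start at 0. *mis15*, *ndc80*, *cut4*, *cut12* and *dma1* are raised only in *pab2*Δ by the test, *apc10* is raised in both mutants, *mad2* lies lowest in *clr4-1*, and *fta3* lies highest in WT.

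Other genes of the same machinery, which the rule leaves out or whose descriptions lack its words, were taken from symbol lists by role. Of 202 symbols on these lists 180 are in the table. *cnp1*, left out by its histone description, was at 89.4 and 87.0 FPKM in the WT pair, 286 and 288 FPKM in the *pab2*Δ pair, and 105 and 99.7 FPKM in the *clr4-1* pair. Its log2 fold change was 1.69 in *pab2*Δ (SE 0.034, adjusted p = 1.02e-06 from limma) and 0.21 in *clr4-1* (adjusted p = 0.00605). The ratio of *cnp1* to *cnp3* was 7.31 and 7.50 in the WT pair, 16.4 and 15.9 in the *pab2*Δ pair, and 9.58 and 8.96 in the *clr4-1* pair. *sgo1*, which encodes the meiotic shugoshin that protects centromeric cohesion, rose from 0.754 and 0.976 FPKM to 10.7 and 10.5 FPKM in the *pab2*Δ pair, with 1.56 and 1.43 FPKM in the *clr4-1* pair. Its mitotic relative *sgo2* stayed between 16.6 and 20.1 FPKM in all 6 libraries, with a log2 fold change of 0.042 in *pab2*Δ (adjusted p = 0.619).

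The DASH complex is the ring that couples kinetochores to microtubule ends. Of its 10 listed genes 2 were higher in *pab2*Δ, *ask1* and *dad1*, and 1 was lower, *dad5* (background 53.8% and 19.9%), and after scaling 2 were higher and 5 lower (background 32.8% and 34.5%). Their difference from other genes was not tested. The list had a median log2 fold change of -0.020 as deposited and -0.22 after scaling. *dad5* was at 38.5 and 36.2 FPKM in the WT pair, 23.6 and 25.1 FPKM in the *pab2*Δ pair, and 22.2 and 20.1 FPKM in the *clr4-1* pair, lower in both strains (log2 fold changes -0.60 and -0.79, adjusted p = 0.000385 and 0.000581 from limma). *wdr8*, a spindle pole protein gene, rose from 11.9 and 12.7 FPKM to 31.5 and 32.6 FPKM in the *pab2*Δ pair (1.31, adjusted p = 2.98e-05). *dhc1*, the dynein heavy chain gene used in meiotic nuclear movement, went from 0.898 and 0.995 FPKM to 2.06 and 2.06 FPKM (0.65, adjusted p = 0.0106). *apc11*, the RING subunit missed by the rule, had a log2 fold change of 0.82 in *pab2*Δ (adjusted p = 0.000187), so that 10 of 13 subunits of the anaphase-promoting complex were higher (background 53.8%), 8 after scaling (background 32.8%). *slp1*, which encodes the mitotic activator of that complex and the target of the checkpoint, was at 13.2 and 13.5 FPKM in the WT pair and 10.3 and 9.86 FPKM in the *clr4-1* pair (-0.37, adjusted p = 0.00419). In the *pab2*Δ pair *slp1* was at 16.7 and 15.7 FPKM (0.26, adjusted p = 0.00655 from limma, and 0.383 after scaling).

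**Figure D4:**
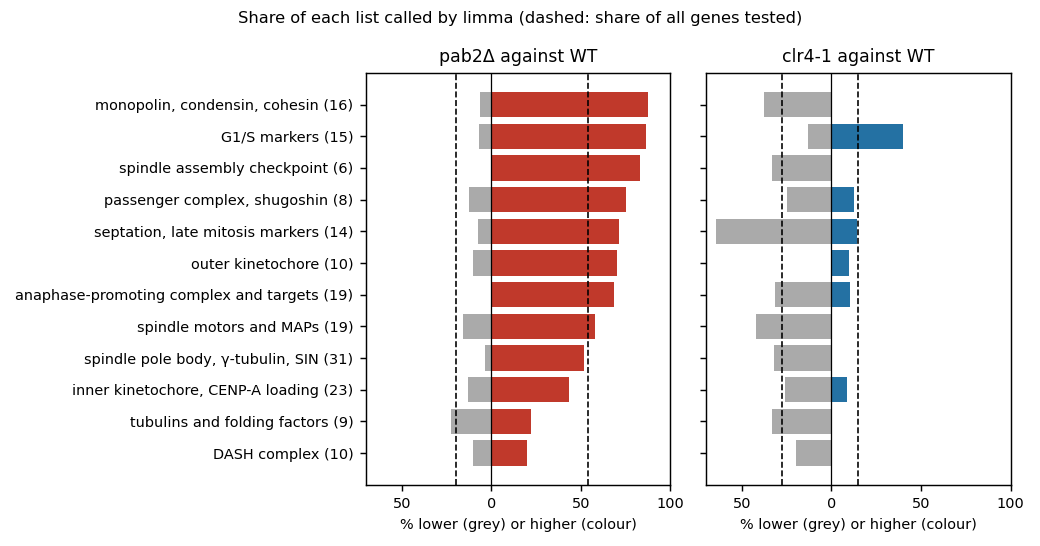
Share of each symbol list called higher (coloured bars, to the right) or lower (grey bars, to the left) than WT by limma, with the list size in brackets and dashed lines at the share of all genes tested. In *pab2*Δ the background is 53.8% higher and 19.9% lower, and the DASH and tubulin lists have the lowest shares of higher genes. In *clr4-1*, where the background is 15.1% higher and 27.5% lower, 9 of the 14 septation genes are lower.

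Many of these genes are used in 1 stage of the cell cycle, and in bulk RNA a different share of cells in a stage and a different level per cell cannot be told apart. Of 15 genes of the G1/S transition 13 were higher and 1 lower in *pab2*Δ (background 53.8% and 19.9%), and 9 and 2 after scaling (background 32.8% and 34.5%). In *clr4-1* 6 were higher and 2 lower (background 15.1% and 27.5%), and 6 and 1 after scaling (background 21.0% and 17.7%). Their summed level was 283 and 287 FPKM in the WT pair, 440 and 441 FPKM in the *pab2*Δ pair, and 327 and 329 FPKM in the *clr4-1* pair. Much of the rise of this sum in *clr4-1* lay in *suc22*, at 97.8 and 102 FPKM in the WT pair and 133 and 136 FPKM in the *clr4-1* pair. Past a ratio of 2 in all pairs of *pab2*Δ and WT libraries were *cdt1* and *cdc18*, which license replication origins, *cdt2*, *cig2* and *mrc1*. *cdt1* rose from 13.4 and 13.7 FPKM to 52.9 and 54.8 FPKM (log2 change 1.91, adjusted p = 1.5e-06 from limma), and the others had log2 fold changes from 1.2 to 1.3. Septation and late mitosis genes summed to 704 and 720 FPKM in the WT pair, 860 and 939 FPKM in the *pab2*Δ pair, and 633 and 641 FPKM in the *clr4-1* pair. A large part of this sum was *spo12*, at 302 and 319 FPKM in the WT pair. In *pab2*Δ 10 of the 14 septation genes were higher and 1 lower (background 53.8% and 19.9%), and 6 and 3 after scaling (background 32.8% and 34.5%). In *clr4-1* 2 were higher and 9 lower (background 15.1% and 27.5%), and 2 and 6 after scaling (background 21.0% and 17.7%). No gene of either list was at 0 in any library. The part of cell cycle stage in the changes of the 48 genes was not tested.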

How the data were processed

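Total RNA from 3 strains, 2 libraries each, was sequenced with a strand-specific kit. The submitters' processing notes name FastQC 0.11.6, STAR 2.5.3a and StringTie 1.3.1c. The genome build, annotation, strand setting and treatment of reads that fit several genes are not given in the sources used here, so values of overlapping genes are uncertain. The deposited values were taken as FPKM computed by the authors, from their fractions, differing sums and column names. The 4 columns of ratios between strains computed by the authors were not used. Depth is unknown, so no counting error is given, and the 2 replicates per strain limit the precision.

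Values were tested as log2(FPKM + 1) with limma 3.58.1 (R 4.3.3), 1 model of 3 strains, an intensity trend and Benjamini-Hochberg adjustment over the 4899 genes averaging 1 FPKM or more. The fold rule required all 4 ratios of mutant to WT libraries above 2 or below 0.5, because the *pab2*Δ columns carry no replicate number. Unweighted TMM factors trimmed 30% of log ratios and 5% of levels. Scripts were tested on simulated data. Tables and figures used Python 3.11.15, pandas 2.3.3 and matplotlib 3.10.9. The genes named are the 12 highest and 12 lowest called members per mutant, those past the fold rule, the 3 highest and 3 lowest WT levels, 1 landmark per role, *cnp1*, and listed non-members past the fold rule. Other genes were named after their values were seen. The members and lists were chosen with earlier results of these data known. A gene that is counted among the members is not reported by name here, and it has no point of its own in the figures.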

Additional observations from a re-analysis of the deposited data

How the results depend on the processing

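After TMM scaling 17 genes rose and 6 fell in *pab2*Δ, and 19 were higher and 4 lower in *pab2*Δ than in *clr4-1*, as given beside the main counts, and the medians of the 48 genes were 0.063 in *pab2*Δ, -0.041 in *clr4-1* and 0.14 between the mutants. In *pab2*Δ, *mis12* (-0.021) and *mis16* (-0.0068) changed sign and lost their calls. Between the mutants *apc10* (-0.074), *cut11* (-0.092), *mis12* (-0.038), *mis18* (-0.039) and *ppc89* (-0.0091) also changed sign and lost their calls. In all, 14 of the 48 genes changed sign in *pab2*Δ, 5 in *clr4-1* and 11 between the mutants, and none of these was called on both scales. Of them *mal2* and *nuf2* in *pab2*Δ, and *nuf2* between the mutants, were called lower after scaling. By ratio, 1 gene stayed above 2 in *pab2*Δ with 1 FPKM added and 1 after scaling, and 10 passed 1.5-fold. With a pseudocount of 0.1 FPKM the medians were 0.28 in *pab2*Δ and 0.43 between the mutants. Pseudocounts and filters left the counts of called genes within 1.5 times their main values.

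Without 1 library, 22 to 28 genes were higher and 2 to 3 lower in *pab2*Δ, 2 to 5 higher and 6 to 10 lower in *clr4-1*, and 29 to 39 higher and 1 to 2 lower between the mutants. Medians then ran from 0.26 to 0.29 in *pab2*Δ, from -0.13 to -0.10 in *clr4-1*, and from 0.37 to 0.40 between the mutants. Under every setting tried 16 genes stayed higher and 2 lower in *pab2*Δ, and 2 higher and 3 lower in *clr4-1*, except that *apc15* has no value with a minimum mean of 5 FPKM. With the replicate number as a block in the WT and *clr4-1* libraries, 4 genes were lower and 4 higher. The deviations of same-numbered libraries had a correlation of -0.094 across genes, so the numbers are not taken to pair the libraries, and no such fit was possible for *pab2*Δ, whose columns carry no number.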

Other observations

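Genes of the chromosome axis and of the microtubule tracks, which the description rule does not reach, moved in different ways in *pab2*Δ. Of 16 monopolin, condensin and cohesin genes 14 were higher and 1 lower as deposited (background 53.8% and 19.9%), and 4 higher and 2 lower after TMM scaling (background 32.8% and 34.5%). The one lower as deposited was *rad21*, the cleavable subunit of cohesin, at 39.2 and 40.7 FPKM in the WT pair, 32.9 and 33.1 FPKM in the *pab2*Δ pair, and 31.0 and 31.1 FPKM in the *clr4-1* pair (adjusted p = 0.00089 and 0.00123 from limma). *pds5*, which regulates cohesin, was at 5.83 and 6.11 FPKM in the WT pair and 9.73 and 9.68 FPKM in the *pab2*Δ pair (log2 change 0.62, adjusted p = 0.000335 from limma). The 2 cohesin genes thus moved in opposite directions in the same libraries.

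Of the 9 tubulin and tubulin folding genes 2 were higher in *pab2*Δ, *alp21* and *gtb1* (γ-tubulin), and 2 lower, *nda2* and *alp41* (background 53.8% and 19.9%). After scaling 1 was higher and 5 lower (background 32.8% and 34.5%). *nda3*, which encodes β-tubulin, was at 479 and 487 FPKM in the WT pair and 462 and 474 FPKM in the *pab2*Δ pair, and *atb2*, an α-tubulin gene, was between 144 and 150 FPKM in all 6 libraries. Neither was called in *pab2*Δ as deposited, and both were called lower in *pab2*Δ after scaling (adjusted p = 0.000205 and 0.000411 from limma). *nda2*, the other α-tubulin gene, fell from 248 and 242 FPKM to 204 and 200 FPKM in the *pab2*Δ pair (log2 change -0.28, adjusted p = 0.000274 from limma). Among genes that act on microtubule ends, *peg1* was higher in *pab2*Δ (0.74, adjusted p = 5.08e-05) and *mal3* lower (-0.40, adjusted p = 0.000933), and in *clr4-1* *tip1* was lower, at 7.72 and 8.37 FPKM against 12.3 and 13.1 FPKM in the WT pair (-0.60, adjusted p = 0.00185). These genes were named after their values were seen.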
